A study of Mus musculus with 6 samples.

Results

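The actin isoforms are the 6 genes of the mouse that encode actin itself, namely *Acta1*, *Actc1*, *Acta2*, *Actg2*, *Actb* and *Actg1*. They were taken by gene symbol from a table of 20066 genes, and all 6 were listed once. The table holds RNA sequencing of cardiomyocytes (CMs) isolated from C57BL/6 pups at P0-1 and kept in culture for 96 h with a cell-permeable α-ketoglutarate (αKG, 100 µM per the labels) or with its solvent, dimethylsulfoxide (DMSO). Each group had 3 libraries of total RNA. The study asked whether αKG, an intermediate of the Krebs cycle, keeps newborn CMs from maturing, and the actins bear on that question because heart muscle exchanges one striated isoform for the other as it matures. The labels do not say whether the libraries came from separate cultures or animals, so p-values measure only the spread between these samples.

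Actin monomers polymerize into filaments. In the sarcomere these are the thin filaments on which myosin pulls, and in every cell they form the cortex, stress fibres and adhesions. *Acta1* (skeletal α-actin) and *Actc1* (cardiac α-actin) make up the thin filaments of striated muscle, *Acta2* and *Actg2* (smooth muscle α- and γ-actin) belong to contractile smooth muscle, and *Actb* and *Actg1* (cytoplasmic β- and γ-actin) serve the cytoskeleton of all cells. The fetal and newborn rodent heart carries *Acta1* and *Acta2* beside *Actc1*, the adult heart mostly *Actc1*, and *Acta1* returns in hypertrophy, for which it is counted among the fetal heart genes. Many actin genes are transcribed through serum response factor (SRF) at CArG boxes, letters that open with CC, close with GG and hold A or T at every place between.

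The isoforms are so alike that it matters whether a read of 75 bases can tell them apart. The start of each coding sequence is shown because it holds the residues by which the isoforms differ most. These are the first 60 coding bases in the GENCODE M21 transcripts (GRCm38), with capitals at each base that differs from, or is absent in, the aligned *Acta1* sequence.
Acta1: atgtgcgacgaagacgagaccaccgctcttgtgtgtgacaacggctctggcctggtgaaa
Actc1: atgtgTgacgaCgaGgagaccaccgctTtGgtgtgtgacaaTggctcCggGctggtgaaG
Acta2: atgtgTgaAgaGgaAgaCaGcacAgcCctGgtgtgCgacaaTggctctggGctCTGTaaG
Actg2: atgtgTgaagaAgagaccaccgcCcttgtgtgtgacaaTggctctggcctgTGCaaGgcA
Actb: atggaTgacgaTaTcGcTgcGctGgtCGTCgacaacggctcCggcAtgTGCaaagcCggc
Actg1: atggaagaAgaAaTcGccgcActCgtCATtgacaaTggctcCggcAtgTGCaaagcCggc

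*Actc1* departed from *Acta1* at 9 of these bases and *Acta2* at 17. Over the whole coding sequence, *Acta1* and *Actc1* were 86.3% identical, *Actb* and *Actg1* 88.6%, and the least alike pair, *Acta2* and *Actg1*, 81.5%. Of the 75-base stretches in the longest coding transcript, 100% were found in no other gene's transcripts for *Actc1*, *Acta2* and *Actg2*, 99.6% for *Acta1* and 97.4% for *Actb*. The exception was *Actg1*, with 45.5%, because 10 genes, most of them processed pseudogenes, share stretches with it. Reads of several genes or places were left out by the authors, so the level of *Actg1* is uncertain and may be understated, while *Acta1* and *Actc1* shared no such stretch.

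The region before the start of *Acta1* is shown because this was the one isoform that rose. It covers 250 bases upstream of the RefSeq start at chr8:123894776-123895025, minus strand, GRCm38.p6, and capitals mark CArG boxes, 10-letter stretches that miss a CArG box by 1 letter, and the MCAT motif CATTCC bound by TEAD factors.
Acta1: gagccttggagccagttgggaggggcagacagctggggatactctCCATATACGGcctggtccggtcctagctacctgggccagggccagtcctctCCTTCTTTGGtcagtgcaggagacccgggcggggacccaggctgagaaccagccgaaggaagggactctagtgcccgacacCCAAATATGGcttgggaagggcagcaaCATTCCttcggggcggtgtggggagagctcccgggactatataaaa

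The window held 1 CArG box, 73 to 64 bases before the start, 2 stretches that missed it by 1 letter, and 1 MCAT motif, 46 to 41 bases before the start. For comparison, 30 bases around 1 match in each of the other isoforms with a listed promoter are given, again on the minus strand, at chr2:114052903-114052932 (*Actc1*), chr19:34255438-34255467 (*Acta2*) and chr11:120348566-120348595 (*Actg1*).
Actc1: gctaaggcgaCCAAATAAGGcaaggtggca
Acta2: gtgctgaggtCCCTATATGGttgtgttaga
Actg1: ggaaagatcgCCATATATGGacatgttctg

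*Actc1* and *Actg1* each held 1 CArG box, beside 3 stretches that missed it by 1 letter in *Actc1* and 0 in *Actg1*. *Acta2* held no CArG box but 2 such stretches, the farther of which is shown. The *Acta2* stretch lies in the first exon and the *Actc1* box in an intron of the GENCODE annotation, since the RefSeq starts of these genes lie inside the annotated genes. Both strands were searched and no motifs overlapped. Of 32851 RefSeq promoters of the same length, 1.47% held a CArG box, 17.5% a stretch that missed it by 1 letter and 12.6% an MCAT motif in either direction. The promoter windows of *Actb* and *Actg2* were not analysed here, and a match is a description of letters, not of bound factor.

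αKG raised *Acta1*, by 3.12-fold to 6.27-fold over the DMSO mean in single libraries, and no other actin passed the test. The normalized read counts of *Acta1* (chr8:123891769-123894751, minus strand, GRCm38, ENSMUSG00000031972) were 68, 78 and 84 in the DMSO libraries and 429, 481 and 239 in the αKG libraries, in the order of the replicate numbers, which is kept from here on. The groups did not overlap, although αKG replicate 3 lay between the DMSO libraries and the other αKG libraries. The log2 fold change was 2.25 ± 0.23 (SE; 95% interval 1.73 to 2.77; limma, Benjamini-Hochberg adjusted p = 0.00335 over all genes). Against the DMSO mean, *Acta1* was 5.60-fold and 6.27-fold higher in αKG replicates 1 and 2 and 3.12-fold higher in replicate 3.

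Of the 6 isoforms *Acta1* alone passed the test, and it alone had groups that did not overlap. Across all genes, 3.78% passed the test, 2.83% with higher values in αKG, and 28.3% had groups that did not overlap. *Acta1* ranked 15th of 20066 genes by p and 88th by log2 fold change. The estimated reads behind *Acta1* were 71 to 88 per DMSO library and 254 to 430 per αKG library. The SD of 8.08 between DMSO libraries was close to the counting SD of 8.52, while the SD of 127 between αKG libraries was far above its counting SD of 20.2.

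αKG replicate 3 stood apart from its group across the table. Over the 8295 genes with a mean of at least 100, its mean absolute log2 distance was 0.161 to 0.201 to the DMSO libraries and 0.274 to 0.295 to the other αKG libraries, and without it 37.2% of all genes passed the test. Leaving it out raised the log2 fold change of *Acta1* to 2.56 ± 0.11 (SE, limma, Benjamini-Hochberg adjusted p = 0.000167). Leaving out αKG replicate 1 or 2 instead gave 2.14 and 2.05 with adjusted p of 0.203 and 0.255 (limma, Benjamini-Hochberg), and leaving out DMSO replicate 2 or 3 gave 2.26 and 2.32 with adjusted p of 0.12 and 0.0869 (limma, Benjamini-Hochberg). The direction held in all 14 alternatives and the call in 9.

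**Figure D1:**
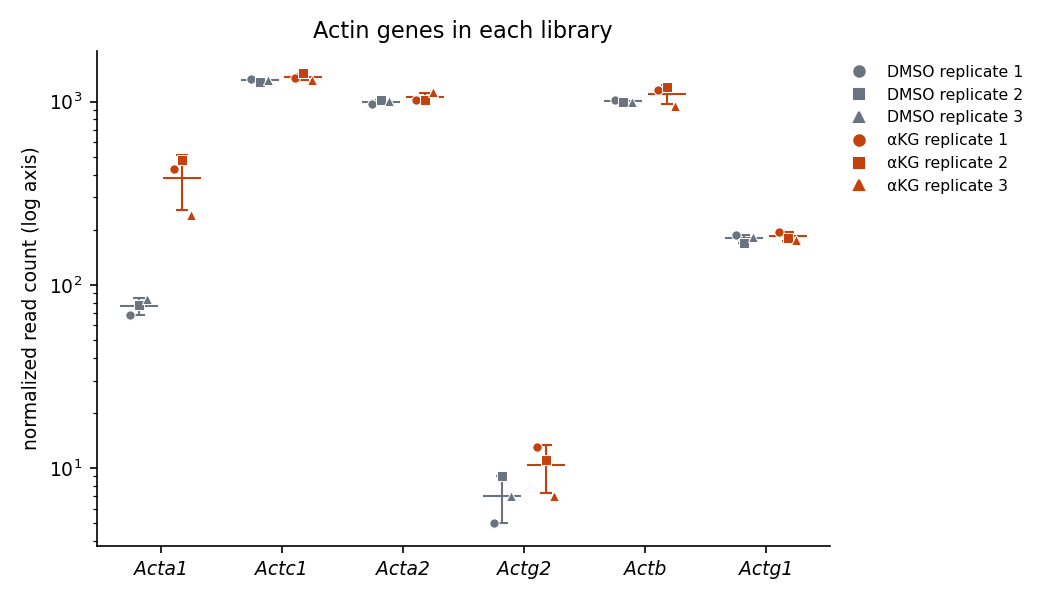
Normalized read count (log axis) of the 6 actin genes in the DMSO and αKG libraries, each point a library, horizontal bars the group mean and vertical bars ± SD (n = 3 libraries). *Acta1* rises from 68 to 84 in DMSO to 239 to 481 in αKG, with αKG replicate 3 lowest, whereas the points of the other 5 genes overlap between groups.

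*Actc1*, the main actin of the adult heart (chr2:114047282-114053548, minus strand, ENSMUSG00000068614), gave 1335, 1283 and 1305 normalized reads in DMSO and 1350, 1428 and 1317 in αKG. The values overlapped. Its log2 fold change of 0.06 ± 0.06 (SE; 95% interval -0.07 to 0.19; limma, Benjamini-Hochberg adjusted p = 0.513) did not pass the test, and the interval reaches from 0.953-fold to 1.14-fold. The log2 ratio of *Acta1* to *Actc1* within each library, which does not depend on scaling, was -4.10 ± 0.176 in DMSO and -1.90 ± 0.493 in αKG (SD, n = 3). The difference of 2.20 had p = 0.1 in an exact two-sided permutation test, the smallest that 3 against 3 libraries allow, and p = 0.233 after Benjamini-Hochberg adjustment over the 7 class shares and ratios compared.

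*Acta2*, the actin of vascular smooth muscle, of myofibroblasts and of early embryonic CMs (chr19:34241090-34255590, minus strand, ENSMUSG00000035783), stood at 970, 1020 and 1007 in DMSO and at 1019, 1020 and 1131 in αKG. The highest value was that of αKG replicate 3, the opposite of its place for *Acta1*, and the groups overlapped. The log2 fold change was 0.08 ± 0.07 (SE; 95% interval -0.07 to 0.23; limma, Benjamini-Hochberg adjusted p = 0.453). *Actg2*, the actin of visceral smooth muscle (chr6:83512905-83536265, minus strand, ENSMUSG00000059430), was close to the limit of detection, with 5, 9 and 7 normalized reads in DMSO and 13, 11 and 7 in αKG. At this depth its interval was wide, with a log2 fold change of 0.50 ± 0.39 (SE; 95% interval -0.38 to 1.37; limma, Benjamini-Hochberg adjusted p = 0.428).

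*Actb*, the cytoplasmic β-actin often used as a reference gene (chr5:142903115-142906754, minus strand, ENSMUSG00000029580), gave 1026, 995 and 997 in DMSO and 1151, 1204 and 950 in αKG. αKG replicates 1 and 2 lay above every DMSO library and replicate 3 below them all. The log2 fold change was 0.12 ± 0.09 (SE; 95% interval -0.07 to 0.32; limma, Benjamini-Hochberg adjusted p = 0.375). Without αKG replicate 3 it was 0.23 ± 0.04 and passed the test (SE, limma, Benjamini-Hochberg adjusted p = 0.00711), the single alternative of 14 in which *Actb* did. *Actg1*, the cytoplasmic γ-actin (chr11:120345690-120348542, minus strand, ENSMUSG00000062825), stood at 186, 169 and 182 in DMSO and 195, 181 and 176 in αKG, which overlapped, with a log2 fold change of 0.04 ± 0.10 (SE; 95% interval -0.19 to 0.27; limma, Benjamini-Hochberg adjusted p = 0.832). The *Actg1* pseudogenes *Gm8399* and *Gm12003* were listed at no more than 3 in any library.

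**Figure D2:**
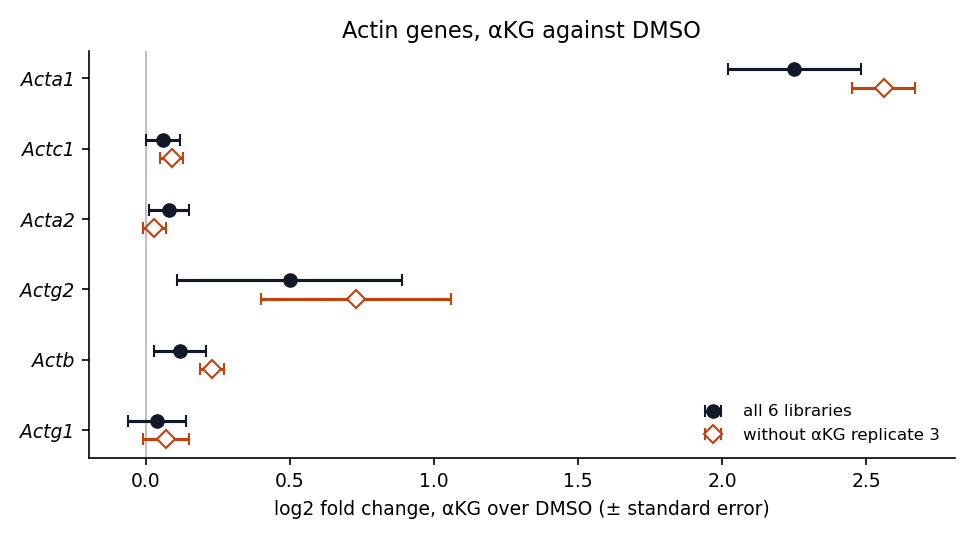
Log2 fold change of each actin gene, αKG over DMSO, with bars of ± 1 standard error from limma; filled circles use all 6 libraries and open diamonds leave out αKG replicate 3. *Acta1* stands at 2.25 and 2.56, *Actg2* at 0.50 and 0.73 with wide bars, and the other genes at 0.23 or less.

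As a share of the summed value of the 6 genes, *Acta1* made up 1.89, 2.19 and 2.35% in DMSO and 10.32, 11.12 and 6.26% in αKG. Its mean share rose from 2.15 ± 0.230% to 9.23 ± 2.61% (SD, n = 3), with p = 0.1 in the exact two-sided permutation test and 0.2 after Benjamini-Hochberg adjustment over the 6 isoforms. A change is therefore not shown at the 0.05 threshold by this test, which cannot go below 0.1, even though the groups lay apart.

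*Actc1* had the largest share in every library, 37.19, 36.10 and 36.43% in DMSO and 32.48, 33.02 and 34.48% in αKG. *Acta2* and *Actb* came next, *Acta2* with 27.02 to 28.70% in DMSO and 23.58 to 29.61% in αKG, and *Actb* with 27.83 to 28.58% and 24.87 to 27.84%. *Actg1* held 4.76 to 5.18% in DMSO and 4.18 to 4.69% in αKG, and *Actg2* at most 0.31% in any library. In αKG the shares of *Actc1* and *Actg1* lay below those in DMSO without overlap, with differences of -3.25 and -0.51 percentage points (exact permutation p = 0.1 for each, 0.2 adjusted over the 6 isoforms), while *Acta2*, *Actb* and *Actg2* overlapped.

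Because shares add up to the whole, a higher share of one isoform lowers the others. With *Acta1* left out of the sum, an alternative added after the data were seen, the other 5 isoforms all overlapped between groups. *Actc1* then made up 36.91 to 37.90% in DMSO and 36.21 to 37.15% in αKG (exact permutation p = 0.2), and *Actg1* 4.86 to 5.28% and 4.71 to 5.23% (exact permutation p = 0.6). The difference for *Actb* changed sign, from -1.34 to 0.82 percentage points. *Acta2* differed by -0.07 percentage points. With all 6 isoforms in the sum but αKG replicate 3 left out, the differences were -0.37 points for *Actb* and -3.90 for *Acta2*, in place of -1.34 and -2.04.

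**Figure D3:**
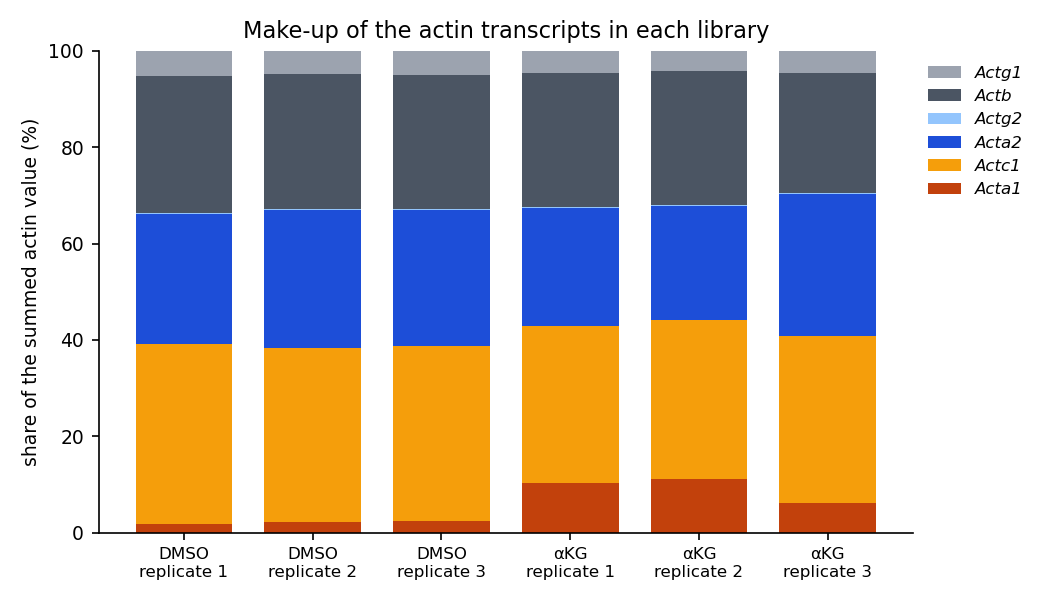
Share of each actin gene in the summed value of the 6 genes (%), 1 stacked bar per library. The lowest segment, *Acta1*, grows from 1.89 to 2.35% in DMSO to 6.26 to 11.12% in αKG, and *Actg2*, at most 0.31%, is too thin to see.

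By class, the striated pair *Acta1* and *Actc1* made up 38.7 ± 0.396% in DMSO and 42.6 ± 1.72% in αKG, the smooth muscle pair 28.1 ± 0.909% and 26.2 ± 3.19%, and the cytoplasmic pair 33.1 ± 0.542% and 31.3 ± 1.58% (SD, n = 3). The striated and cytoplasmic shares did not overlap between groups (exact permutation p = 0.1 each, 0.233 adjusted over 7). Leaving out αKG replicate 3, the smooth muscle difference went from -1.99 to -3.81 points and the cytoplasmic one from -1.85 to -0.94. The log2 ratios within the other pairs differed little, by 0.48 for *Actg2* to *Acta2* and by 0.08 for *Actb* to *Actg1* (exact permutation p = 0.3 and 0.6), and that of *Acta2* to *Actc1* by 0.02.

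The summed value itself was 3590, 3554 and 3582 in DMSO and 4157, 4325 and 3820 in αKG, or 0.087 to 0.088% and 0.093 to 0.104% of all normalized reads. Its log2 difference was 0.20 (exact permutation p = 0.1). Of the rise in the mean sum by 525 normalized reads, *Acta1* accounted for 58.3%, *Actb* for 18.2%, *Actc1* for 10.9%, with most of the remainder from *Acta2*. Without *Acta1* the sum was 3522, 3476 and 3498 in DMSO and 3728, 3844 and 3581 in αKG, a log2 difference of 0.09 without overlap (exact permutation p = 0.1).

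Levels were compared between genes per kilobase of annotated exon. In DMSO the order was *Actc1* (808 ± 16.1 normalized reads per kilobase), *Acta2* (455 ± 11.8), *Actb* (376 ± 6.48), *Actg1* (67.3 ± 3.34), *Acta1* (49.9 ± 5.26) and *Actg2* (3.21 to 5.78; otherwise SD, n = 3 for each). No neighbours in that order overlapped. In αKG *Acta1* changed places with *Actg1*, at 249 ± 82.9 and with a range of 156 to 313 against 69.2 ± 3.71. The level of *Acta1* in αKG thus remained below those of *Actc1* (844 ± 35.2), *Acta2* (481 ± 29.3) and *Actb* (355 to 449) in each library.

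Scaled instead per kilobase of stretches found in no other gene, *Actb* (559.5 ± 9.65) lay above *Acta2* (509 ± 13.2) in DMSO, the reverse of the order per exon. This scale also takes the longest coding transcript in place of all annotated exons, so length changes as well as uniqueness. *Actb* went from 2679 bases of exon to 1846 possible stretches, of which 1798 were in no other gene. *Acta2* went from 2196 to 1961, all in no other gene, and *Actg1* from 2658 to 1878, of which 855 were. *Actg1* rose most by this scale, to 209 ± 10.4 in DMSO and 215 ± 11.5 in αKG. *Acta1* then stood at 56.1 ± 5.92 in DMSO and 280.4 ± 93.3 in αKG, and its αKG range of 175 to 352 overlapped that of *Actg1*, 206 to 228. The places of *Actc1* at the top and *Actg2* at the bottom were the same on both scales.

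**Figure D4:**
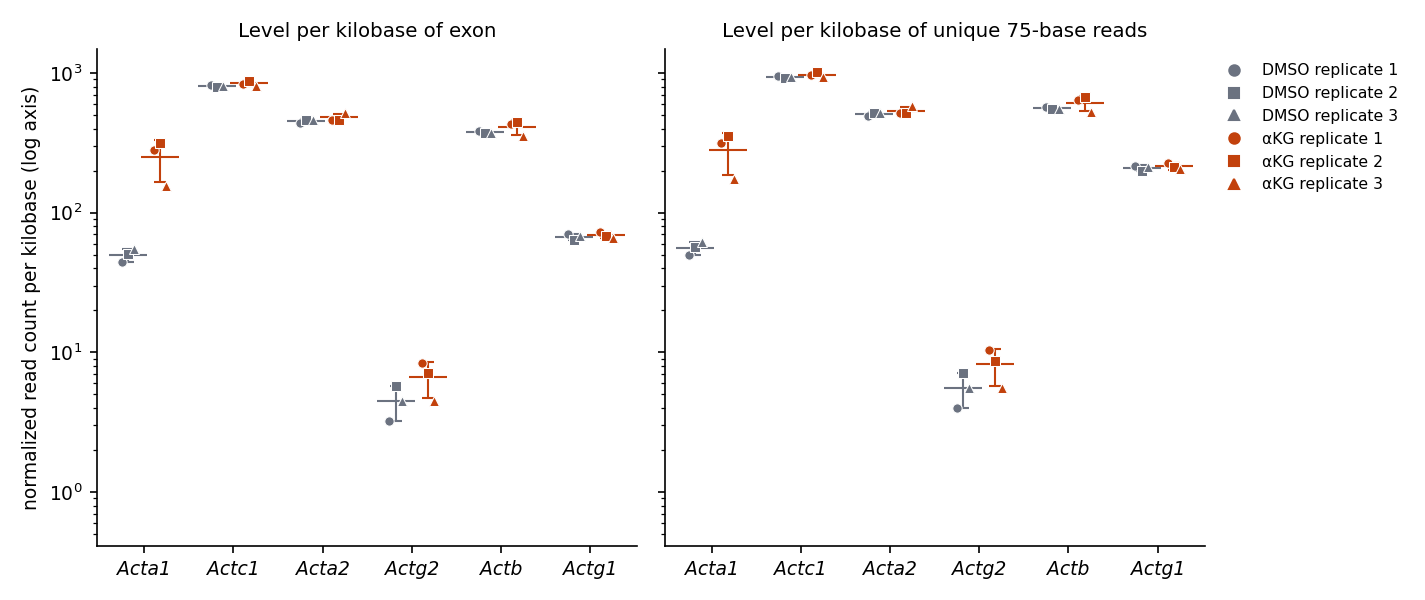
Normalized read count per kilobase (log axis) of the 6 actin genes, per kilobase of exon on the left and per kilobase of 75-base stretches found in no other gene on the right; points are libraries, horizontal bars means and vertical bars ± SD (n = 3). *Actc1* is highest and *Actg2* lowest on both scales, and *Actg1* moves from 67.3 to 209 in DMSO between them.

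The gene whose log2 values followed *Acta1* most closely over the 6 libraries, among 8294 genes with a mean of at least 100, was *Cask*, a scaffold kinase of cell membranes (Pearson r = 0.999), with 315, 322 and 323 in DMSO and 427, 439 and 392 in αKG. *Steap2*, a metalloreductase (r = 0.998), and *Ankrd1*, a stress-responsive protein of the sarcomere and nucleus (r = 0.998), came next. *Ankrd1* gave 1314, 1341 and 1340 in DMSO and 1651, 1710 and 1551 in αKG. With αKG replicate 3 between the groups in all of them, 549 genes had r above 0.9, so these values describe a pattern that many genes had. For *Actc1* the closest was *Yae1d1* (r = 0.983), for *Acta2* *Mcc* (r = 0.994), for *Actg2* *Kmt2c* (r = 0.993), for *Actb* *Rcn3* (r = 0.998) and for *Actg1* *Atg16l1* (r = 0.968), which are likewise descriptions over 6 libraries.

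Of 7 genes of SRF and its cofactors, through which actin transcription is controlled, 0 passed the test. Their median log2 fold change was -0.07, beside 0.04 over all genes and -0.08 over the 8295 genes with a mean of at least 100, a level that all 7 reached. The medians of the lists below are read beside these values. Their counts are read beside 3.78% of all genes past the test, or 37.2% without αKG replicate 3. *Srf* itself gave 421, 473 and 474 in DMSO and 301, 294 and 470 in αKG, low in 2 αKG libraries and at the DMSO level in replicate 3. Its log2 fold change was -0.39 ± 0.16 (SE, limma, Benjamini-Hochberg adjusted p = 0.154), and without αKG replicate 3 it fell by 0.61 on the log2 scale (limma, Benjamini-Hochberg adjusted p = 0.00181). *Mrtfb*, an SRF coactivator that is released by polymerizing actin, fell by 0.30 in that setting (limma, Benjamini-Hochberg adjusted p = 0.00365), and *Mrtfa*, *Myocd*, *Elk1*, *Elk3* and *Elk4* lay between -0.14 and 0.04 over all libraries.

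Of 15 cytoskeletal target genes of SRF and its cofactors, by contrast, 3 rose, 0 fell, and the median was 0.35. *Cnn1*, the actin-binding calponin of smooth muscle, rose from 5, 10 and 12 normalized reads to 119, 167 and 30 (log2 fold change 3.17 ± 0.57 SE, limma, Benjamini-Hochberg adjusted p = 0.0279). *Myl9*, a myosin regulatory light chain, rose by 0.57 ± 0.08 with 306, 289 and 300 in DMSO and 417, 458 and 452 in αKG, so that here replicate 3 did not differ from the other αKG libraries. *Ccn2*, a secreted matricellular protein, rose by 0.57 ± 0.13 close to the threshold (limma, Benjamini-Hochberg adjusted p = 0.0454), and lost the call with a pseudocount of 0.1 (0.0613). *Cnn1*, *Myl9* and *Ccn2* each lost the call when any single library other than αKG replicate 3 was left out. Without αKG replicate 3, 12 of the 15 rose and 0 fell, beside 37.2% of all genes past the test in either direction.

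Of 28 genes of actin nucleation and elongation, 2 rose and 0 fell (median -0.08), beside 3.78% of all genes past the test. The balance turned without αKG replicate 3, with 3 that rose and 11 that fell. Past the test with all libraries were the formin *Diaph3*, which went from 317, 271 and 217 to 496, 503 and 549 (log2 fold change 0.96 ± 0.13 SE, limma, Benjamini-Hochberg adjusted p = 0.00985), and *Enah*, which elongates filaments at adhesions (0.48 ± 0.08 SE). *Diaph3* was as high in αKG replicate 3 as in the others, unlike *Acta1*. Among 18 genes of monomer binding and filament turnover, such as profilins and cofilins, 0 passed the test (median -0.02), and the most abundant, *Cap2*, stood at -0.43 ± 0.13 (SE, limma, Benjamini-Hochberg adjusted p = 0.0797), with 1444, 1427 and 1400 in DMSO and 911, 962 and 1349 in αKG. Of these 18, 0 rose and 2 fell without αKG replicate 3.

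Among 11 genes that cap filaments or set thin filament length, 2 rose and 0 fell (median -0.04). *Xirp2*, an actin-binding repeat protein of the Z-disc and intercalated disc, rose from 1243, 1798 and 1617 to 5817, 6504 and 3182 (log2 fold change 1.69 ± 0.23 SE, limma, Benjamini-Hochberg adjusted p = 0.0111), with replicate 3 again lowest within αKG. *Nrap*, a scaffold of myofibril assembly, rose by 0.46 ± 0.07, with 1722, 1701 and 1693 in DMSO and 2434, 2475 and 2124 in αKG. Of 17 crosslinking genes 1 rose, the muscle filamin *Flnc* (0.36 ± 0.07 SE), and 0 fell (median 0.17). In the fit without αKG replicate 3, 4 of the capping and length genes rose and 5 fell, and 11 of the crosslinking genes rose and 3 fell.

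Of the 17 genes listed that fold and modify actin, among them the subunits of the CCT chaperonin and of prefoldin, 0 passed the test. Their median of -0.11 was near the -0.08 of all genes whose mean reached 100, of which 37.4% had a log2 fold change above 0, beside 0 of the 17; *Tcp1*, the most abundant, had a mean of 1038 in both groups. Of the 7 actin-related proteins listed 0 passed the test, and the median was -0.33, with *Actr1b*, a subunit of dynactin, at -0.13 ± 0.08 (SE, limma, Benjamini-Hochberg adjusted p = 0.303). In all, 8 of the 119 pathway genes passed the test, 6.72% beside 3.78% of all genes, and all 8 rose. Without αKG replicate 3 it was 60 genes, 50.4% beside 37.2%, of which 29 rose and 31 fell. With any other single library left out, 0 or 1 of the 119 passed.

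**Figure D5:**
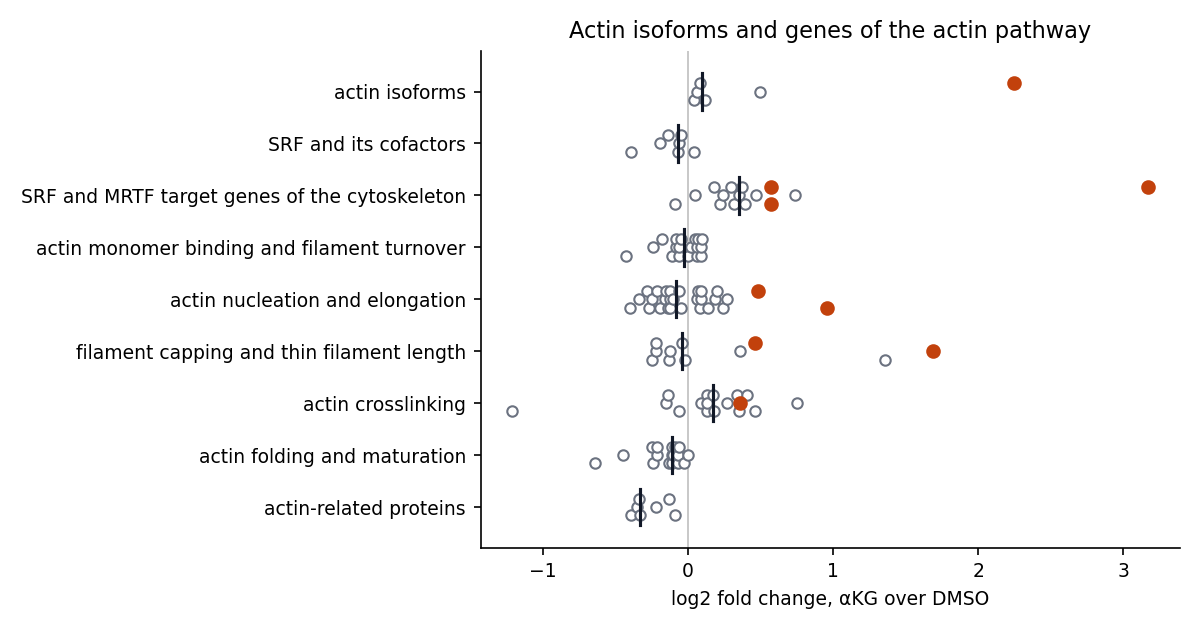
Log2 fold change, αKG over DMSO, of the 6 actin isoforms and of the genes of 8 pathway lists; each circle is a gene, filled where the limma test over all genes passed (Benjamini-Hochberg adjusted p under 0.05), and the upright line is the median of the list. *Acta1* at 2.25, *Cnn1* at 3.17 and *Xirp2* at 1.69 lie far to the right of their lists, and the chaperone and actin-related lists lie to the left of no change.

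Because these are whole cultures, fewer cells of a type and less RNA per cell cannot be told apart. The defining markers of CMs were high: *Ttn* gave 51569 to 54216 in DMSO and 55569 to 84136 in αKG, and *Ryr2* 8448 to 9091 and 9528 to 11406. The summed CM markers lay at 75542 to 78250 in DMSO and 80135 to 111618 in αKG, with 0 of 10 past the test, but *Ttn* alone made up 71.3% of that sum. Single markers differed in direction. Without overlap, 3 were higher and 1, *Pln*, was lower (1917 to 2012 in DMSO, 1668 to 1904 in αKG), beside 28.3% of all genes. Without αKG replicate 3, 4 rose and 2, *Pln* and *Nkx2-5*, fell, beside 37.2% of all genes past the test. *Acta1* is also the main actin of skeletal muscle, of whose 12 markers 6 were listed, with a summed value of 679 to 846 in DMSO and 659 to 832 in αKG and 0 past the test; *Ckm* stood at 645 to 810 and 606 to 802, and *Tnni2* at 13 to 18 and 9 to 13. *Ckm* made up 94.1% of that sum, so the sum follows *Ckm* and is no measure of skeletal muscle cells, whose part was not tested. The other 4 listed, *Tnnt3*, *Mylpf*, *Myh1* and *Myh2*, had positive log2 fold changes at values of 21 or less. Of these *Tnnt3*, a fast skeletal troponin T, gave 4, 2 and 4 in DMSO and 18, 21 and 2 in αKG and rose without αKG replicate 3 (log2 fold change 2.28, limma, Benjamini-Hochberg adjusted p = 0.00515). *Pln*, *Nkx2-5* and these 4 were named after their values were seen. The remaining 6 of the 12, among them *Myod1* and *Myog*, were not analysed here.

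Other cell types that express actins differed in how their markers behaved. The summed smooth muscle and pericyte markers did not overlap between groups, whereas the fibroblast and epicardial sums did. Of 10 smooth muscle and pericyte markers 2 rose, *Cnn1* and the pericyte proteoglycan *Cspg4* (0.66 ± 0.13 SE), beside 2.83% of all genes that rose. The list summed to 2036 to 2238 in DMSO and 2384 to 3544 in αKG. *Cspg4* alone made up 41.1% of that sum, and *Smtn* gave 485 to 551 and 485 to 722. *Cnn1* was also counted among the SRF target genes above. Fibroblast markers summed to 6108 to 6305 and 5902 to 11975 with 0 of 10 past the test, αKG replicate 3 being the lowest library; *Col1a1* gave 951 to 1018 and 1042 to 2402, and *Fn1* 2499 to 2576 and 2276 to 3898. Epicardial markers summed to 466 to 499 and 454 to 1177 with 0 of 8 past the test, *Upk1b* ranging from 31 to 43 and from 14 to 129 and *Tbx18* from 306 to 332 and from 351 to 408. Without αKG replicate 3, 8 of 8 epicardial, 8 of 10 fibroblast and 4 of 10 smooth muscle and pericyte markers rose and 0 fell. Of all 20066 genes, 3865 rose and 3601 fell in that fit, 37.2% in either direction.

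Of 8 endothelial markers 7 fell, beside 3.78% of all genes past the test in either direction. They summed to 1508 to 1657 in DMSO and 679 to 990 in αKG, and *Cdh5* fell by 1.04 ± 0.16 and *Kdr* by 1.14 ± 0.21 (SE, log2). The 4 listed macrophage markers summed to 22 to 35 and 24 to 41, with *Cd68* at 5 to 11 and 4 to 27 and *Mrc1* at 9 to 13 and 8 to 15. In αKG replicate 3 the fibroblast, epicardial and endothelial sums (5902, 454 and 990) lay below the DMSO range. The smooth muscle and pericyte sum (2384) lay above it. The part of these cell types in the values of *Acta1*, *Acta2* and *Actb* was not tested.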

How the data were processed

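Total RNA libraries (SMARTer stranded kit; 3 DMSO and 3 αKG) were sequenced as single reads of 75 bases. According to the study's methods the authors trimmed the reads, aligned them with STAR to GRCm38 and counted with featureCounts those that touched an exon, leaving out reads of several genes or places; the submitters' processing notes name Trimmomatic 0.39, STAR 2.7.10a, featureCounts 2.0.3 and DESeq2 1.30.1. Whether strand was used in counting is not given in the sources used here, so overlapping genes, here *Actg1* with *Gm23419* and *Mir6935*, are uncertain. The deposited values are treated as a score: the authors divided reads by a factor per library and rounded them to whole numbers, so count models were not applied. The value of 1 read, read from the spacing of low values, was 0.926 to 1.12, which gave 3724762 to 4428177 estimated reads per library. Tested on simulated data, 40 of 40 such values were recovered within 0.5%. Intervals and counting SDs cover counting error only, because amplified reads were not tagged by molecule. The concentration follows the labels, and the study's methods give another.

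All 6 libraries entered limma 3.58.1 (R 4.3.3) with a mean trend on log2(value + 1), without a filter, with Benjamini-Hochberg adjustment over 20066 genes and a threshold of 0.05; the pseudocount understates the change of low genes such as *Actg2*. Tested on simulated data of 18773 genes with 200 changed, 198 were called, 195 of them changed and with the right sign, and with no gene changed 0 were called. The simulated libraries varied little beyond counting error and none stood apart. The result therefore does not carry over to the wider spread between the αKG libraries. Shares, ratios and the sum were compared with exact two-sided permutation tests over libraries. Exon lengths and transcripts were those of GENCODE M21, in which 99% of the genes had the table's positions, and promoters those of RefSeq GRCm38.p6, which held 4 of the 6 isoforms. The members, gene lists and markers were chosen with earlier results of these data known. Named were the 6 actins, the SRF list, up to 3 genes with the smallest p past the threshold or otherwise the most abundant gene of each other list, the 3 genes most like each actin (only the first given for 5 of them), and the 2 most abundant markers of each cell type, with 6 further markers named after their values were seen. Alternatives were pseudocount, a filter, scaling, the variance trend, limma-voom on estimated reads, a replicate block, each library left out, length scaling, added pseudogenes and *Acta1* left out of the sum.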

Additional observations from a re-analysis of the deposited data

How the results depend on the processing

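The number of genes that differed, 759, was 346 with a pseudocount of 0.1, 27 without a mean trend, 357 with limma-voom on estimated reads and 46 with the replicate block, and ranged from 0 to 7466 when each library was left out; 0 were called without αKG replicate 1 or 2 and 7466 without αKG replicate 3. Same-numbered libraries did not deviate together (correlations of -0.035, 0.0567 and 0.0172). This cannot show whether they shared a culture or isolation, because αKG replicate 3 stood far from the other αKG libraries. Pathway genes past the test, 8, ranged from 0 to 60 with libraries left out. The log2 ratio of *Acta2* to *Actc1*, 0.02, ranged from -0.06 to 0.08 with a library left out and was -0.02 without DMSO replicate 1 and -0.06 without αKG replicate 3. The share of *Actb* changed sign to 0.82 points with *Acta1* left out of the sum. Among single genes, signs turned for *Mrtfa* (0.02 without αKG replicate 2), *Myocd* (-0.02 with quantile normalization and -0.06 without αKG replicate 3), *Ryr2* (-0.12 with quantile normalization), *Smtn* (-0.06) and *Mrc1* (0.08) without αKG replicate 1, and *Ckm* (0.02 without DMSO replicate 1), none of them past the test; with a library left out these ranged from -0.22 to 0.02 (*Mrtfa*), -0.06 to 0.12 (*Myocd*), -0.06 to 0.22 (*Smtn*), -0.33 to 0.08 (*Mrc1*) and -0.21 to 0.02 (*Ckm*). Of 531 values for 38 named genes under alternatives, 427 kept direction and side of the threshold, 86 lost the call, 11 gained it and 7 turned sign. *Acta1* kept its direction throughout but lost the call without a mean trend (limma, Benjamini-Hochberg adjusted p = 0.102) and in 4 of the 6 settings that leave out a library; it kept it with the replicate block. Length scaling and the added pseudogenes turned no share. Length by unique reads, the pseudogenes and *Acta1* left out of the sum were alternatives chosen after seeing the data. A version of the unique reads over the genome, and pseudogenes named after *Actb* or *Actg1*, were not run. The causes were not tested.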
